A study of Drosophila melanogaster with 12 samples.

Results

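A pair of Drosophila melanogaster stocks that both carry wild-type su(Hw) was compared in the testis: BL15598, with 3 arrays, against Canton S, with 3 arrays, chosen by their titles and making up 6 of the 12 arrays of the series. BL15598 males carried y[1] and w[67c23], which are alleles of the body colour gene yellow and of the eye pigment transporter gene white on the X chromosome, and the P element insertion P{EPgy2}Amt[EY02782] at the ammonium transporter gene Amt on chromosome 3. Canton S, a laboratory wild type in common use, is given in the labels by its name alone. The other 6 arrays came from su(Hw) null males: A2663/2 males shared the y, w and Amt alleles of BL15598 and had su(Hw)[A2663] over su(Hw)[2], while 2/v males had the same y and w alleles, the X-linked alleles ct[6] and f[1], and su(Hw)[2] over su(Hw)[v]. All males were 3 days old and raised at 25 °C, and each RNA was pooled from about 100 pairs of testes. An array therefore gives an average over many males. The comparison holds everything that differs between the stocks, and the named alleles and the rest of the genetic background cannot be told apart.

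The fly testis is a coiled tube in which germline stem cells at the tip give rise to spermatogonia, spermatocytes and spermatids, wrapped in a sheath of muscle and pigment cells and joined to the seminal vesicle, accessory glands and ejaculatory duct. Stocks kept apart come to carry different alleles at many genes, and genes of detoxification, immunity, smell, taste and the cuticle belong to large families that vary between fly strains. Su(Hw) itself is a zinc-finger protein that binds DNA at the gypsy insulator and at many sites in the genome.

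Markers of spermatids were bright: the 9 defining ones had their median signal at the 99.2 percentile of all genes. Of these, 0 lay below the median of the control probe sets. The 6 spermatocyte regulators had their median at the 76.6 percentile. Markers of other testis cells were dimmer, at 35.3 for 4 measured early germline genes and 28.9 for 4 hub and cyst genes. The 24 accessory gland genes stood at 67.7. Array medians ran from 194 to 226 signal units in BL15598 and from 200 to 203 in Canton S. Across probe sets the log2 signals of BL15598 arrays correlated on average at 0.955 with each other, and those of Canton S arrays at 0.956 with each other. Between BL15598 and Canton S the mean correlation was 0.939. No pair of arrays held identical values.

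The stocks differed at many genes, and in both directions. Of 11982 named genes, limma's moderated test on log2 signal called 1370 at an adjusted p under 0.05, which is 11.4% of the genes measured. Of these, 779 were higher in BL15598 (6.5% of all genes) and 591 were lower (4.93%). The size of these differences was often large: 648 of the called genes differed at least 2-fold, 227 at least 4-fold and 56 at least 10-fold. The median absolute log2 change of the called genes was 0.99, while the median change of all genes was 0.03. In 1369 of the 1370 the 3 arrays of BL15598 and the 3 of Canton S did not overlap, a separation seen in 28.4% of all genes. Over probe sets, 1799 of 18769 were called (9.58%), 1019 higher (5.43%) and 780 lower (4.16%).

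These counts depend on how the spread was estimated and the arrays scaled. The fit takes 1 spread from all 4 genotypes. With the 6 compared arrays alone, which leaves fewer residual degrees of freedom, 715 probe sets were called, 400 higher and 315 lower. The share of calls that were higher in BL15598 was 56.6% for the values as given, 48.3% once arrays were centred on their medians and 50.5% when they were quantile normalized, and no excess of either direction is read from it. In bulk testis RNA, fewer cells of a type and less RNA per cell cannot be told apart. The labels call the replicates biological without saying how they were kept apart, and the p-values measure the spread between these arrays only.

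The share of genes called and the size of the called changes differed with signal. With genes split by mean signal into 4 bins of equal size, the dimmest bin had 5.94% called, with a median absolute log2 change of 2.16. In the middle bins 15.6% and 14.4% were called, with medians of 1.18 and 0.85. The brightest bin had 9.75% called at a median of 0.65. These medians are over called genes only and do not compare the bins as a whole. In 81 of the called genes the dimmer stock alone lay below 20.4 signal units, the median of the array's 183 control probe sets. The folds of these genes are given as lower bounds from that level. In 9 other called genes both stocks lay below it, and these have no fold.

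**Figure D1:**
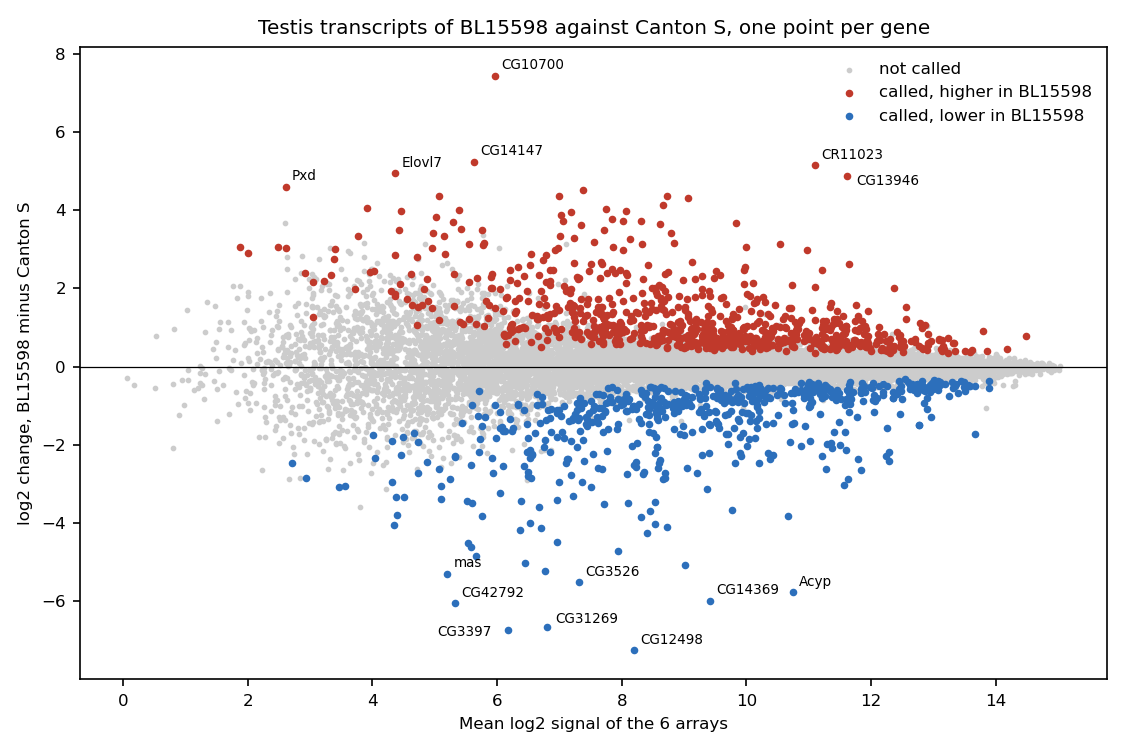
Each point is 1 of 11982 genes: the x axis gives the mean log2 signal of the 6 arrays and the y axis the log2 change, BL15598 minus Canton S, with called genes in red (779 higher in BL15598) and blue (591 lower). The greatest changes lie near 7 log2 units in both directions, from CG10700 at 7.44 to CG12498 at -7.26.

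Of the 14 genes with the greatest rise, 6 had a geometric mean signal below the control median in Canton S, and the other 8 were measured in both stocks. CG10700 on chromosome arm 2L led with 1052, 808 and 663 signal units in BL15598, against 1.22, 6.33 and 14 in Canton S. All 3 Canton S arrays lay below the control median, so the fold is at least 40.4-fold (log2 change 7.44, SE 0.693, adjusted p = 0.000146). CG14147, on 3L, showed the same form at lower signal, with 354, 339.6 and 232 in BL15598 and 8.80, 11.1 and 5.28 in Canton S. Elovl7, a fatty acid elongase gene, had 140.0, 75.4 and 142 in BL15598 and 2.41, 5.96 and 3.62 in Canton S (at least 5.60-fold higher, adjusted p = 3.63e-05). The leading genes were chosen among called genes whose stocks did not overlap, so their separation is set by that rule. Without Canton S replicate 1 the log2 change of CG10700 was 6.46, and without Canton S replicate 3 it was 8.21.

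Other leading genes were measured on both sides. RabX2, which encodes a Rab-like small GTPase on the X chromosome, had 1822, 1731 and 1547 in BL15598 and 63.8, 133 and 107 in Canton S, a 17.5-fold difference (log2 4.13, SE 0.243, adjusted p = 1.07e-05). The pickpocket gene ppk19 encodes a sodium channel of the DEG/ENaC family. Its signals were 795, 1044 and 797 in BL15598, against 43.1, 87.0 and 40.9 in Canton S (16.3-fold, adjusted p = 2.63e-05). In both genes the stocks were far apart. CG8837 on 2L had 909, 907 and 621 in BL15598 and 68.9, 14.6 and 42.1 in Canton S (23.0-fold, adjusted p = 0.000735), and without Canton S replicate 2, the dimmest, the log2 change was 3.89 in place of 4.52. CG13946, also on 2L, had signals of 13226, 15473 and 24036 in BL15598 and 631, 596 and 529 in Canton S (29.1-fold, adjusted p = 1.72e-05). Even its dimmest BL15598 array stood far above its brightest Canton S array.

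Some of the leading rises rest on 1 probe set among several or on few arrays. For gol, a RING-finger protein gene, the brightest probe set gave 2889, 2595 and 1835 in BL15598 and 52.9, 145 and 225 in Canton S (20.0-fold), whereas another had means of 440 ± 66.2 in BL15598 and 492 ± 68.7 in Canton S (SD, n = 3 each) and did not pass. Without Canton S replicate 1 the log2 change of gol was 3.73 in place of 4.32. The transmembrane protein gene tinc had 666, 617 and 473 in BL15598 and 12.3, 57.3 and 31.5 in Canton S, and none of its 4 other probe sets passed the test. The log2 change of tinc was 4.36, 3.77 without Canton S replicate 1 and 0.83 as the mean of all its probe sets. CG31517 had 1789, 1674 and 2362 in BL15598, against 18.3, 182 and 252 in Canton S. Its first Canton S array lay far below the others, and without it the log2 change was 3.17 in place of 4.35, while without Canton S replicate 3 it was 5.06. The call of CG31517 ended with the 6 compared arrays alone. Phae2, a serine protease gene, had 210.5, 161 and 105 in BL15598 and 1.55, 7.06 and 37.1 in Canton S. Its log2 change of 4.37 became 3.24 without Canton S replicate 1 and 5.53 without Canton S replicate 3. Its call ended without BL15598 replicate 1 (4.14) and with the 6 compared arrays alone. The peroxidase gene Pxd had signals near the control level even in BL15598, with 24.2, 30.7 and 36.9, against 1.25, 0.861 and 1.77 in Canton S. The Canton S mean lay below the control median, so the difference is given as a bound, at least 1.47-fold higher, and the log2 change was 0.56 with values floored at that median. The call of Pxd ended without Canton S replicate 2 (4.34) and without BL15598 replicate 2 (4.59), values that rest on signals below that median. CG6337, at 37.6, 79.8 and 78.5 in BL15598 and 1.5, 6.29 and 5.32 in Canton S, completes the set and was at least 3.02-fold higher. Its log2 change was 4.07 as deposited, 3.42 without Canton S replicate 1 and 1.60 with values floored at the control median.

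Of the 14 genes with the greatest fall, 8 had a geometric mean signal below the control median in BL15598. CG3397 on 3R had 12.1, 3.77 and 7.41 in BL15598 and 750.0, 737 and 755 in Canton S, at least 36.6-fold lower (log2 change -6.74, SE 0.335, adjusted p = 4.30e-06). CG42792 on 2L had the smallest adjusted p of the 28 leading genes (2.51e-07), with 5.62, 5.62 and 3.70 in BL15598 and 307, 309 and 362 in Canton S. CG31269 had 18.9, 12.6 and 5.69 in BL15598 and 1055, 1123 and 1166 in Canton S (at least 54.5-fold lower, adjusted p = 7.44e-05). The Canton S arrays of these genes lay close together, and no BL15598 array came near them.

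Several of these genes have a known product. Acyp, an acylphosphatase gene on 2L, had signals of 57.6, 251 and 867 in BL15598 and 12565, 13454 and 12199 in Canton S (54.8-fold lower, adjusted p = 0.00104). The BL15598 arrays spread over a wide range, and without BL15598 replicate 1, the dimmest, the log2 change was -4.77 in place of -5.78. Without replicate 3, the brightest, it was -6.73. Muc4B, a mucin gene on the X chromosome, had 46.3, 50.2 and 47.0 in BL15598 and 1148, 1322 and 1329 in Canton S (26.4-fold lower, adjusted p = 3.52e-05). The serine protease homolog gene mas had 8.12, 4.17 and 5.98 in BL15598 and 233, 232 and 228 in Canton S. CG30325, on 2R, had 41.2, 98.9 and 174 in BL15598 and 2656, 3016 and 3306 in Canton S (33.5-fold lower, adjusted p = 5.72e-05). CG14369 had 53.9, 129 and 90.0 in BL15598 and 6302, 4765 and 5314 in Canton S at its brightest probe set, while its other probe set had means of 34.6 ± 23.9 in BL15598 and 24.0 ± 29.3 in Canton S (SD, n = 3 each) and did not pass. That all 3 Canton S arrays stood above all BL15598 arrays in each of these genes follows from the rule that chose them. In CG31897, CG17477 and CG15597 the BL15598 mean lay below the control median, so the differences are given as bounds, at least 13.3-fold, at least 24.5-fold and at least 11.7-fold lower. The log2 change of CG15597 was -3.5 without BL15598 replicate 3, in place of -4.62, and its call ended with the 6 compared arrays alone. Genes whose difference is a bound have no order among themselves.

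The su(Hw) nulls lay with either stock at these 28 genes. Both nulls were nearer BL15598 at 14 genes, 9 of the rises and 5 of the falls, and both were nearer Canton S at 11, 4 of the rises and 7 of the falls, with means below the control median set to it. At CG10700, for example, A2663/2 had 981, 1008 and 1086 and 2/v had 853, 913 and 758, so Canton S alone was low. CG42792 showed the reverse, with 369, 398 and 401 in A2663/2 and 393, 324 and 382 in 2/v, so BL15598 alone was low. CG13946 was high in BL15598 alone, with 653, 1262 and 1057 in A2663/2 and 825, 606 and 1211 in 2/v. The other 3 genes had the nulls on opposite sides: ppk19 and mas with A2663/2 nearer BL15598, CG31269 with 2/v nearer BL15598. In the nulls, genetic background and the loss of su(Hw) cannot be told apart.

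**Figure D2:**
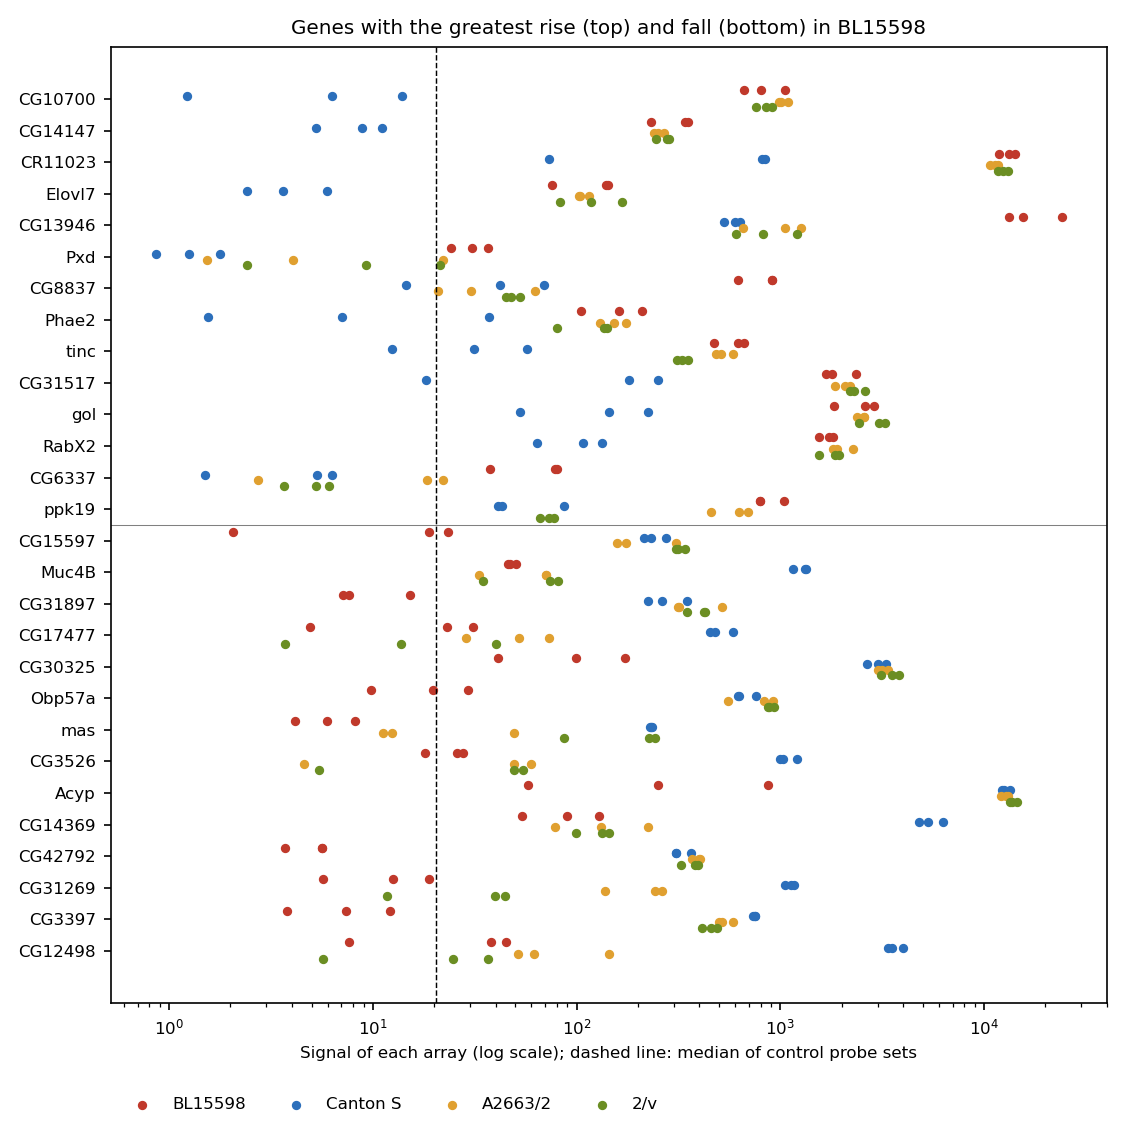
Signal of every array on a log axis for the 14 genes with the greatest rise (top) and the 14 with the greatest fall (bottom), with BL15598 in red, Canton S in blue, A2663/2 in orange and 2/v in green; the dashed line is the control median of 20.4. The red and blue points are apart in every row by the rule that chose the genes. The orange and green points are nearer red at 14 genes and nearer blue at 11, with means below the dashed line set to it.

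The genes named in the BL15598 genotype were looked at in their own right. The su(Hw) transcript had 1409.8, 1544 and 1223 signal units in BL15598 and 864, 885 and 1205 in Canton S, a log2 change of 0.51 (SE 0.401) that did not pass the test (adjusted p = 0.53), although the arrays did not overlap. In the nulls su(Hw) had 64.0, 56.7 and 89.6 in A2663/2 and 38.7, 19.2 and 70.0 in 2/v. The spread of these low values enters the SE. For y, the values were 87.0, 77.1 and 59.5 in BL15598 and 64.4, 26.1 and 36.2 in Canton S (log2 0.90, SE 0.321, adjusted p = 0.127). Amt, the site of the P element, had 208, 194 and 74.0 in BL15598 and 68.5, 137 and 81.2 in Canton S (log2 0.66, SE 0.420, adjusted p = 0.422), with overlapping arrays. The position of the probes relative to the lesions was not used here, so these values do not check the alleles. No probe set is named for w alone, and w was not analysed here. Of the 5 measured genes of ammonium transport and glutamine metabolism, limma called 0, and 0 at an unadjusted p under 0.05.

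Next to these genes, CG32816, whose annotated span in RefSeq holds y and ac, had 185, 227 and 221 in BL15598 and 92.5, 57.8 and 71.1 in Canton S (2.90-fold higher, adjusted p = 0.00315). CG42404, which lies next to Amt, had 77.4, 124 and 108 in BL15598 and 34.5, 29.3 and 39.4 in Canton S (2.97-fold, log2 1.57, adjusted p = 0.0153). Its call ended without Canton S replicate 2 (1.46) and without BL15598 replicate 2 (1.42). The remaining neighbours, IFT54 and CG31321 beside su(Hw), ac beside y, CG32795 beside w and Hsc70-4 on the other side of Amt, had log2 changes of -0.51, 0.44, -1.12, 0.06 and -0.33, and none passed.

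One of the greatest falls lay near w. CG12498, the nearest measured gene on one side of w in the RefSeq order of the Release 6 plus ISO1 MT assembly, had 38.2, 45.2 and 7.66 in BL15598, against 3365, 3536 and 4002 in Canton S. This is a 153-fold difference (log2 -7.26, SE 0.814, adjusted p = 0.000462). The third BL15598 array was the dimmest, and without it the log2 change was -6.45. The nulls, which carry the same w[67c23] allele, had 61.8, 51.8 and 144 in A2663/2 and 24.7, 5.71 and 36.6 in 2/v, so the gene was bright in Canton S alone.

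Of the 50 other genes measured within 250 kb of w, 5 were lower in BL15598 and 0 higher (10%, against 11.4% of all genes): per, CG12498, CG14416, CG3526 and CG3592. Over all genes 4.93% were lower, and on the X chromosome 3.1% were lower and 6.57% called in either direction. Whether the window held more falls than other windows was not tested. CG3526 had 26, 27.7 and 18 in BL15598 and 1001, 1032 and 1209 in Canton S (45.8-fold lower, adjusted p = 0.0100), and its other probe set also fell, by 2.56 on the log2 scale. CG14416, named after its values were seen, had 8.36, 21.7 and 40.5 in BL15598 and 378, 358 and 323 in Canton S (at least 17.2-fold lower, adjusted p = 0.000656). Without BL15598 replicate 1 its log2 change was -3.57 in place of -4.18. CG3592, named in the same way, had 303, 263 and 230.4 in BL15598 and 668, 654 and 625 in Canton S (2.46-fold lower, adjusted p = 0.000633). In RefSeq these genes start 19.3 kb (CG12498), 81.3 kb (CG14416), 100.2 kb (CG3526) and 145 kb (CG3592) after w, and per starts 105 kb before it. The same window held 1 called gene of 29 around y, 2 of 48 around su(Hw), and 10 of 72 around Amt, 7 of these higher.

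Across the chromosomes, called genes were spread over every large arm. The X chromosome had 6.57% of its 1873 genes called, 65 higher and 58 lower. The autosomal arms had 13.8% on 2L, 10.7% on 2R, 13% on 3L and 12.2% on 3R, and on each of them more genes were higher than lower in BL15598 as deposited. Chromosome 4 had 4 of 65 genes called, and 0 of 4 measured genes of the Y chromosome. Genes of the X chromosome were also dimmer, with a median log2 signal of 8.63 against 9.14 to 9.53 on the autosomal arms, and the part of this in the share called was not tested.

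**Figure D3:**
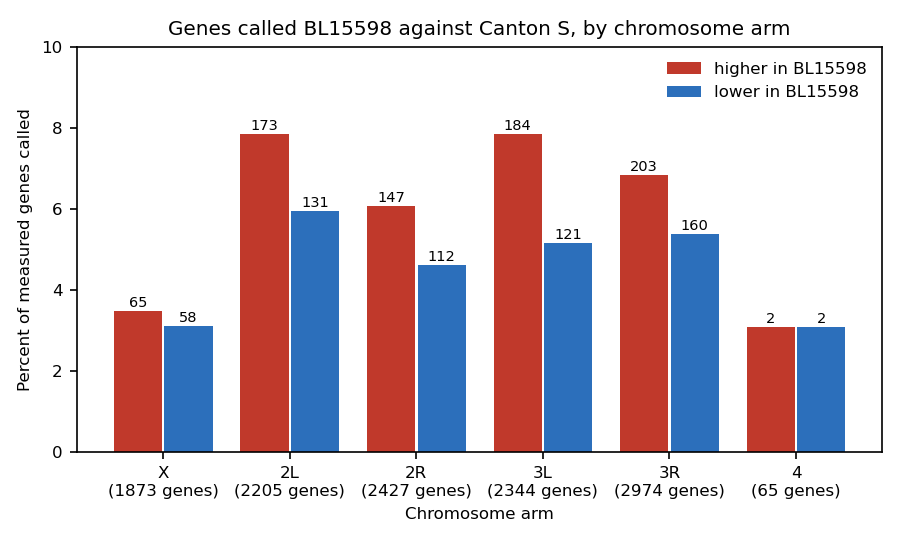
Percent of the measured genes of each chromosome arm that were called higher (red) or lower (blue) in BL15598, with the number of called genes above each bar. The X chromosome had 6.57% of its genes called, and 2L, 2R, 3L and 3R between 10.7% and 13.8%.

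Some called genes had a called neighbour of the same direction. In RefSeq order, 239 of the 1358 called genes with a place (17.6%) stood in 111 runs of 2 or more adjacent measured genes that changed the same way. Of these runs, 97 held 2 genes, 13 held 3 and 1 held 6. Over all genes 6.5% were higher and 4.93% lower. How many runs any order of these genes would give was not tested, so no clustering is read from the count. The run of 3 with the greatest change was CG17477, CG31269 and CG31265 on 3R, all lower, with a median log2 change of -5.03.

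The longest run lay on 3R around CHKov1 and CHKov2, genes of a family with a kinase-like domain. CHKov1 is known from natural populations, where a transposon inserted in it is linked to resistance to sigma virus and to organophosphates. From CG11878 to CG10669, a stretch picked after its values were seen, 25 genes were measured, of which 14 were lower in BL15598, 1 was higher (CG10559) and 10 did not pass, with a median log2 change of -0.69. Over all genes 4.93% were lower and 11.4% called. CHKov2 had 84.6, 63.0 and 44.9 in BL15598 and 333, 313 and 323 in Canton S (5.20-fold lower, adjusted p = 0.00064). Its neighbour CG10562 had 56.7, 95.1 and 95.1 in BL15598 and 385, 503 and 570.3 in Canton S (6.00-fold lower, adjusted p = 0.000124). The 3 Canton S arrays lay above the 3 of BL15598 in both genes. CHKov1 also fell at the brighter of its 2 probe sets, the only one given here. It had 2698, 2544 and 2782 in BL15598 and 4449.5, 4146 and 3961 in Canton S (1.56-fold lower, adjusted p = 0.00548). The number lower was 8 with the 6 compared arrays alone, where the call of CHKov1 ended, and 9 to 12 when single arrays were left out, the 9 being without Canton S replicate 3. The call of CG10559, the gene that was higher, ended without BL15598 replicate 2 or Canton S replicates 1 or 2. Members of the family are alike in sequence, and whether their probes separate them was not tested.

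**Figure D4:**
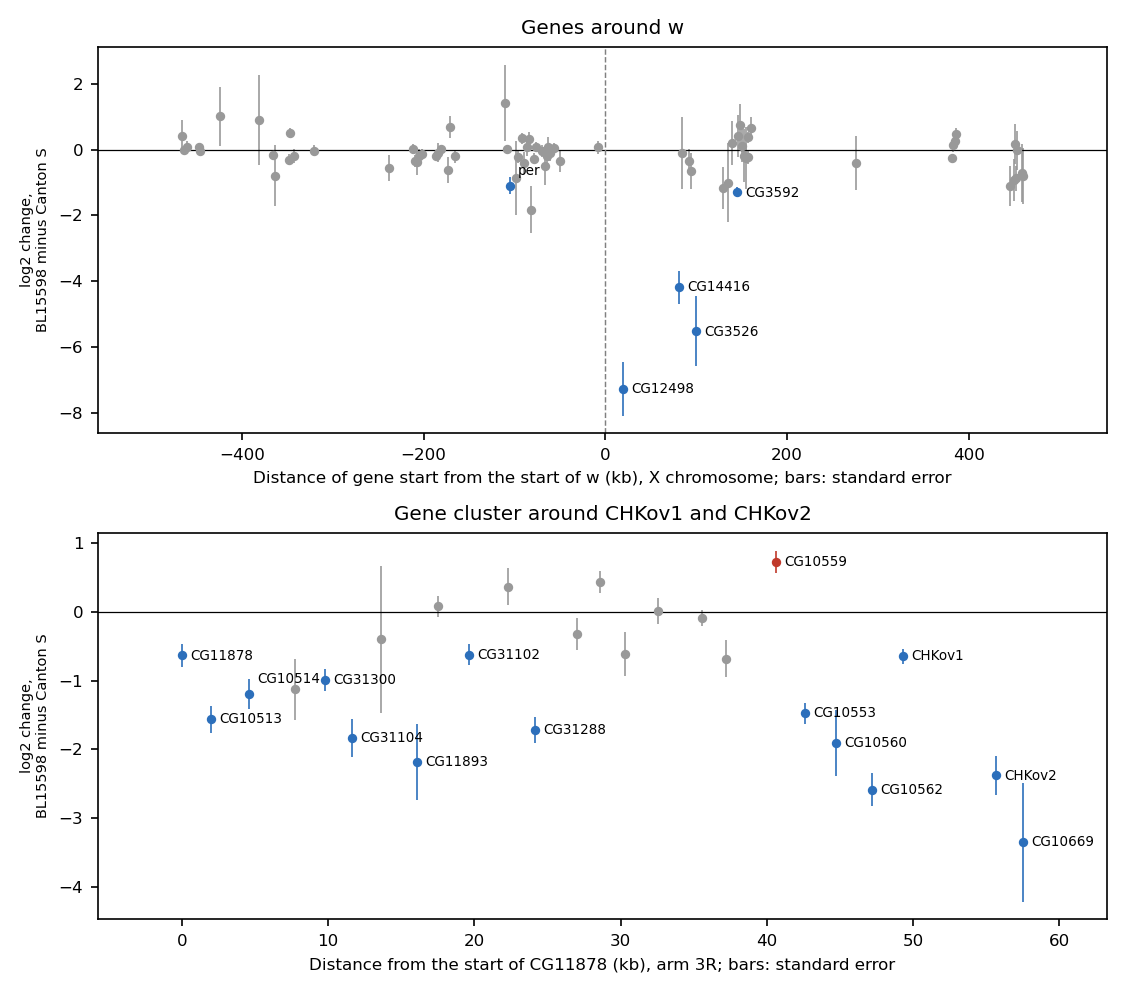
Log2 change, BL15598 minus Canton S, with its standard error for genes around w (top, by distance of gene starts from w in kb) and from CG11878 to CG10669 (bottom), with called genes in blue (lower), red (higher) and grey (not called). Around w 5 genes were lower and 0 higher within 250 kb, and in the CHKov stretch 14 of 25 were lower.

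At the left tip of 2L, the first measured gene, CR11023, had 11797, 13214 and 14258 in BL15598 and 72.9, 810.4 and 841 in Canton S (35.5-fold higher, adjusted p = 0.00253). Canton S replicate 1 lay far below the other Canton S arrays, and without it the log2 change was 3.98 in place of 5.15, while without Canton S replicate 3 it was 5.75. With the 6 compared arrays alone its call ended. Next to it, l(2)gl, a cell polarity gene and tumour suppressor that was named after its values were seen, had 745, 741 and 739 in BL15598 and 510.4, 453 and 492 in Canton S (1.53-fold higher, log2 0.61, adjusted p = 0.0311). The call of l(2)gl was fragile: it ended without any single array of either stock, with log2 changes of 0.57 to 0.65, and also after centring or quantile normalization. The next measured genes, Ir21a, Cda5 and dbr, had log2 changes of 0.25, 0.33 and 0.24 and did not pass.

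Genes that act against foreign compounds differed in both directions. Of 80 measured cytochrome P450 genes, monooxygenases of detoxification and hormone metabolism, 9 were higher and 11 lower in BL15598, which is 25.0% against 11.4% of all genes, with a median log2 change of -0.09. Cyp4p1 had 213, 279 and 245 in BL15598 and 3561, 2800.1 and 3044 in Canton S (12.8-fold lower, log2 -3.67, SE 0.183, adjusted p = 4.30e-06). Cyp6d5 had 1911, 2339 and 2356 in BL15598 and 11178, 10857 and 9888 in Canton S (4.85-fold lower, adjusted p = 1.09e-05). Cyp310a1 had 1622, 1535 and 954 in BL15598 and 4873, 5284 and 5344 in Canton S (3.87-fold lower, adjusted p = 0.000146). In each of these 3 genes the BL15598 arrays were all lower, without overlap. Cyp6a13 ran the other way, with 1586, 1453 and 1215 in BL15598 and 596, 567 and 499 in Canton S (2.55-fold higher, adjusted p = 0.00077).

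The P450 genes Cyp6a2 and Cyp6g1, known from insecticide resistance in fly strains, were named after their values were seen. Cyp6a2 had 165, 151 and 191 in BL15598 and 11.4, 5.54 and 18.5 in Canton S (at least 8.24-fold higher, adjusted p = 0.00594). Cyp6g1 had 169.8, 168 and 229.8 in BL15598 and 98.1, 7.42 and 16.6 in Canton S. The BL15598 arrays were all above the Canton S arrays, but the Canton S arrays ranged widely and the log2 change of 3.03 (SE 1.02) did not pass (adjusted p = 0.107). It passed without Canton S replicate 1, the brightest of the 3, at a log2 change of 4.08. Whether the probes separate close paralogs of these families was not tested.

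The glutathione S-transferase genes, whose products join glutathione to toxic compounds, showed smaller changes. Of 34 measured, 3 were higher and 4 lower (20.6%, against 11.4% of all genes), with a median log2 change of -0.02. GstE5 had 338, 342 and 349.7 in BL15598 and 194, 161 and 171 in Canton S (1.96-fold higher, adjusted p = 0.00212). GstD5, of the GstD cluster on 3R, had 1534, 1447 and 1345 in BL15598 and 3373, 2675 and 2786 in Canton S (2.03-fold lower, adjusted p = 0.00432). The count was 3 without Canton S replicate 1 or BL15598 replicate 1, 4 without Canton S replicate 2 or BL15598 replicates 2 or 3, and 2 with the 6 compared arrays alone. Among UDP-glycosyltransferase genes 3 of 35 were higher and 1 lower (11.4%, the same as the share of all genes). Their count was 1 without Canton S replicate 1 or BL15598 replicates 1 or 2, and 2 without Canton S replicates 2 or 3. Of 15 esterase genes 1 was higher and 2 lower (20.0%). One of these, alpha-Est7, is the fly ortholog of a carboxylesterase linked to organophosphate resistance in blowflies, and it had 94.5, 86.4 and 103 in BL15598 and 190.0, 257 and 267 in Canton S (2.49-fold lower, adjusted p = 0.0125).

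Immune genes differed in both directions within 1 family. The Drosomycin-like genes lie together on 3L and encode relatives of the antifungal peptide Drosomycin. Drsl2 had 480.1, 587 and 367 in BL15598 and 27.6, 63.5 and 64.8 in Canton S (9.70-fold higher, adjusted p = 0.000207), and Drsl3 had 1139, 1086 and 698 in BL15598 and 106, 115 and 103 in Canton S (8.80-fold higher, adjusted p = 7.20e-06). Drsl5 was the opposite, with 431, 417 and 448 in BL15598 and 6487, 5487 and 6292 in Canton S (14.1-fold lower, log2 -3.81, adjusted p = 2.79e-05). The nulls had Drsl5 at 290 to 864 signal units, so its high level was seen in Canton S alone. Drosomycin itself, Drs, had 99.0, 128 and 109 in BL15598 and 109, 45.3 and 141 in Canton S and did not pass (adjusted p = 0.774). Of the 21 measured antimicrobial peptide and Bomanin genes 2 were higher and 2 lower (19.0%, against 11.4% of all genes). The median log2 change of the 21 was 0.20. BomT3, the other gene that fell, lost its call with the 6 compared arrays alone (its log2 change was -1.37). Limma called 0 of the 7 peptidoglycan recognition genes, with 1 higher and none lower before adjustment at p under 0.05.

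Members of the chemosensory families differed in both directions. Of 47 odorant-binding protein genes, which encode small carriers of hydrophobic molecules, 5 were higher and 6 lower. This is 23.4%, against 11.4% of all genes. The median log2 change of the 47 was 0.06. Obp57a had 19.7, 29.2 and 9.78 in BL15598 and 758, 624 and 619 in Canton S (at least 32.5-fold lower, adjusted p = 1.72e-05). In the nulls it had 923, 553 and 835 in A2663/2 and 932, 866 and 877 in 2/v, so BL15598 alone was low. Obp46a had 56.7, 93.4 and 106 in BL15598 and 519, 479.5 and 533 in Canton S (6.18-fold lower, adjusted p = 7.06e-05). Obp56d had 4627, 4602 and 4112 in BL15598 and 1239.6, 1087 and 938 in Canton S (4.11-fold higher, adjusted p = 1.26e-05). Obp56i, its relative in the 56 cluster of 2R, had 7201, 7052 and 5378 in BL15598 and 2090.1, 2474 and 2818 in Canton S (2.66-fold higher, adjusted p = 0.000294). In both of these genes the BL15598 arrays were all higher.

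Of 56 gustatory receptor genes 5 were higher and 1 lower (10.7%), near the share of all genes, and 14 of the 56 lay below the control median in both stocks. The gene that fell, Gr32a, encodes a receptor known for bitter taste and for restraining courtship between males. It had 165, 164 and 125 in BL15598 and 1037, 973 and 1332 in Canton S (7.34-fold lower, log2 -2.88, SE 0.174, adjusted p = 1.09e-05), and the nulls, at 151 to 206, lay with BL15598. Gr61a, a sugar receptor gene, had 211, 148 and 192 in BL15598 and 8.36, 18.4 and 27.9 in Canton S (at least 8.89-fold higher, adjusted p = 0.000788). Gr93d had 1371, 1320 and 1301 in BL15598 and 556, 517 and 659.6 in Canton S (2.32-fold higher, adjusted p = 0.000695). Of 57 odorant receptor genes 2 were higher and 1 lower (5.26%), and Or83c, a farnesol receptor gene, had 291, 264 and 223 in BL15598 and 98.6, 86.7 and 78.4 in Canton S (2.95-fold higher, adjusted p = 0.000816). Among 53 ionotropic receptor genes 1 was higher and 2 lower (5.66%), and 6 were called without Canton S replicate 1 and 5 without Canton S replicate 2. Ir85a had 53.6, 57.7 and 27.3 in BL15598 and 196, 184 and 197 in Canton S (4.39-fold lower, adjusted p = 0.00112).

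Cuticle protein genes, which encode chitin-binding proteins of the body wall and of ducts lined with cuticle, held more genes that rose than genes that fell. Of 104 measured, 13 were higher and 4 lower (16.3%, against 11.4% of all genes). Over all genes 6.5% were higher and 4.93% lower. The list's median log2 change was 0.42, against 0.03 for all genes. Cpr66Cb had 1067, 1209 and 658 in BL15598 and 64.1, 54.4 and 103 in Canton S (13.3-fold higher, adjusted p = 5.54e-05). TwdlP, of the Tweedle family, had 5657, 5880 and 5369 in BL15598 and 497, 1017 and 736 in Canton S (7.83-fold higher, adjusted p = 2.77e-05). Cpr65Ec had 257, 248 and 309 in BL15598 and 50.6, 50.7 and 45.2 in Canton S (5.53-fold higher, adjusted p = 1.30e-05). The BL15598 arrays were high in all 3 genes, with no overlap. Both median and count were smaller in some settings: the median was 0.22 with values floored at the control median, and 9 genes were higher without BL15598 replicate 2 or without Canton S replicate 2.

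Markers of tissues dissected with the testis are given beside these results, and their part in them was not tested. The summed signal of the 5 measured ejaculatory duct and bulb genes was 2864 to 7831 in BL15598 and 2192 to 2648 in Canton S, with a median log2 change of 0.86. The sums did not overlap, but limma called 0 of the genes, 2 being higher at an unadjusted p under 0.05. Dup99B, a duct peptide gene, had 4512, 35.1 and 81.7 in BL15598 and 279.6, 24.2 and 317 in Canton S, and the stocks overlapped. The summed signal of 22 gut protease and amylase genes was 1022 to 1130 in BL15598 and 756 to 809 in Canton S, and 12 of these genes lay below the control median in both stocks. The whole gut list of 42 genes also includes more sugar enzyme genes and the Npc2 genes. It ran the other way, summing to 8932 to 10560 in BL15598 and 12048 to 13035 in Canton S. Of the 42, 4 were higher and 2 lower (14.3%, against 11.4% of all genes), and 3 were called without Canton S replicate 1. In that list the 2 that fell were Npc2a and Npc2h (log2 changes of -0.685 and -0.716), and Npc2d was among the 4 that rose (1.885). Jon74E, a serine protease gene of that list, had 325, 307 and 262 in BL15598 and 157, 127 and 152 in Canton S (2.04-fold higher, adjusted p = 0.00109). The 24 accessory gland protein genes summed to 44156 to 95709 in BL15598 and 44741 to 98293 in Canton S, and 0 were called, also 0 at an unadjusted p under 0.05. Of 11 fat body genes 0 were called, with 1 higher at an unadjusted p under 0.05, and the sums were 28022 to 35222 in BL15598 and 25791 to 28892 in Canton S. The 18 muscle genes summed to 42660 to 52883 in BL15598 and 40598 to 43344 in Canton S, with 2 higher and 1 lower (16.7%). Of the 18, 0 were called without Canton S replicate 1 or 2, and 1 without Canton S replicate 3 or BL15598 replicate 3.

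**Figure D5:**
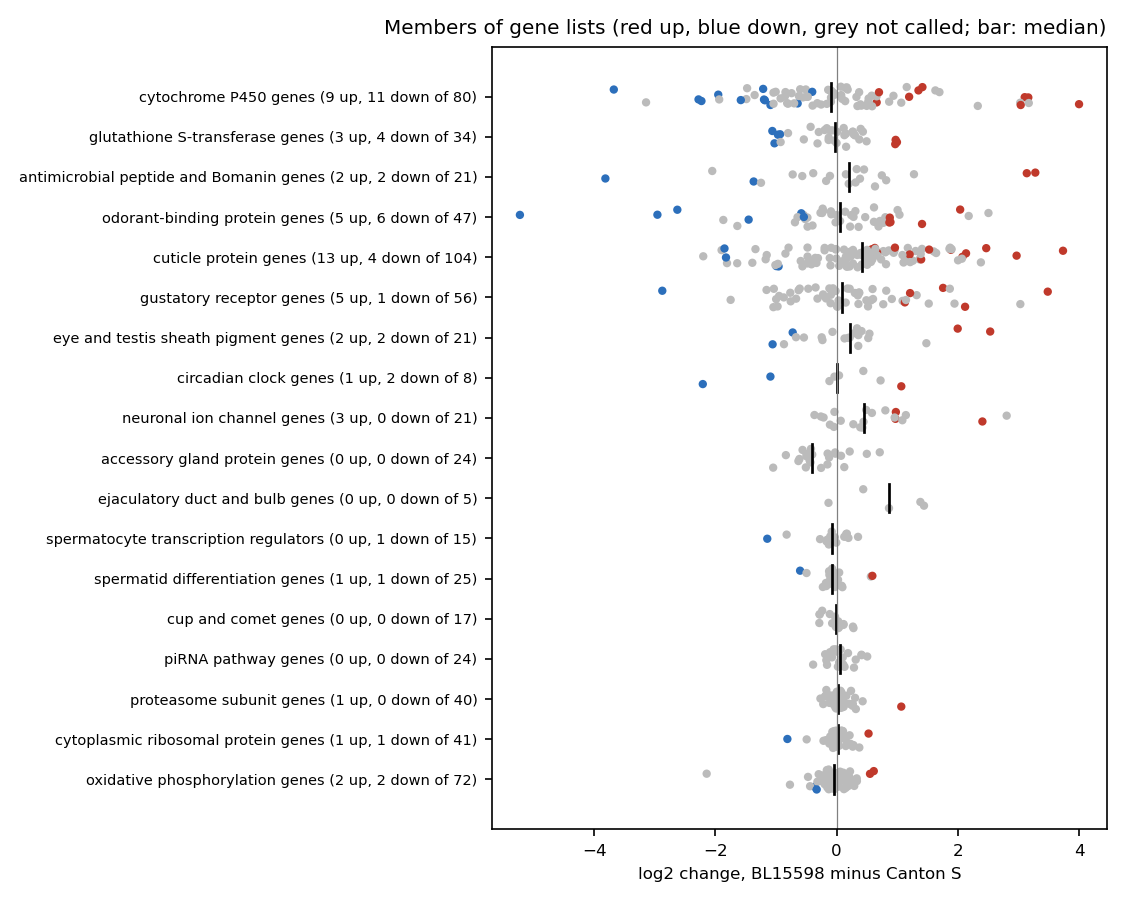
Log2 change, BL15598 minus Canton S, of every measured member of 18 gene lists, with called genes in red (higher) or blue (lower) and the list's median as a bar. Detoxification, odorant-binding and cuticle genes spread over several log2 units, whereas the medians of the proteasome, ribosomal and oxidative phosphorylation lists are 0.02, 0.02 and -0.04, with single members farther out.

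Genes of the germline programme were counted beside the 11.4% called of all genes and the 9.75% called in the brightest bin. Of 15 transcription regulators of spermatocytes 0 were higher and 1 lower (6.67%), of 25 spermatid differentiation genes 1 was higher and 1 lower (8.0%), and of 11 genes of germline stem cells and spermatogonia 0 were higher and 1 lower (9.09%). The median log2 changes of these lists were -0.08, -0.07 and 0.04. Limma called 0 of the 17 post-meiotic cup and comet genes, 0 of 24 piRNA pathway genes, 0 of 7 Y-linked fertility genes and 0 of 11 hub and cyst cell genes. All these lists are small, and no shortfall of called genes is read from them. Before adjustment, p lay under 0.05 for 1 cup or comet gene in each direction, for 5 piRNA genes upward and 1 downward, for 1 Y-linked gene downward and for 1 hub or cyst cell gene upward.

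Single genes of this programme differed. The meiotic arrest gene aly, which turns on the genes of spermatocytes, had 222, 232 and 379 in BL15598 and 560.5, 629 and 597 in Canton S (2.21-fold lower, log2 -1.14, SE 0.185, adjusted p = 0.00405). Its call ended with the 6 compared arrays alone. The meiotic arrest gene comr, chosen after its values were seen, did not pass, with 849.7, 694 and 432 in BL15598 and 638, 602 and 822 in Canton S (adjusted p = 0.883). The germline gap junction gene zpg had 145, 132 and 123 in BL15598 and 252, 253 and 236 in Canton S (1.86-fold lower, adjusted p = 0.00205). Among sperm tail genes, dj had 11206, 12193 and 14544 in BL15598 and 7964, 9170 and 7978 in Canton S (1.51-fold higher, adjusted p = 0.0138), a call that ended when arrays were centred on their medians and with the 6 compared arrays alone.

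In the proteasome and ribosome lists few genes passed, beside 11.4% of all genes. Prosbeta5R2, a testis paralog of a proteasome subunit, had 12396, 11900 and 8673 in BL15598 and 5313, 4907 and 5339 in Canton S (2.09-fold higher, adjusted p = 0.0022), and it was the one called gene of 40 in its list (2.5%). RpS28a, a paralog of a ribosomal protein gene, had 4021, 3624 and 4182 in BL15598 and 7177, 6398 and 7177 in Canton S (1.76-fold lower, adjusted p = 0.000749), 1 of 2 called genes among 41 (4.88%). Of 72 oxidative phosphorylation genes 2 were higher and 2 lower (5.56%), and 0 were called with the 6 compared arrays alone. The number was 2, both higher, without Canton S replicate 2 or 3, without BL15598 replicate 2, and without any single A2663/2 or 2/v array. Whether probes separate such paralogs from their parent genes was not tested.

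Other groups held a few well-separated genes. Of 21 pigment genes of the eye and testis sheath 2 were higher and 2 lower (19.0%, against 11.4% of all genes). The gene se, needed for the red eye pigments called drosopterins, had 107, 140.4 and 118 in BL15598 and 32.3, 26.8 and 32.0 in Canton S (3.99-fold higher, adjusted p = 0.000232), whereas ry, which encodes xanthine dehydrogenase, had 137, 188 and 178 in BL15598 and 349, 315 and 374 in Canton S (2.08-fold lower, adjusted p = 0.00544). The clock gene Clk, whose product activates per and tim, had 707, 759 and 420.5 in BL15598 and 2560.4, 2719 and 3190.1 in Canton S (4.62-fold lower, log2 -2.21, SE 0.210, adjusted p = 0.000165), and the nulls, at 636 to 972, lay nearer BL15598. Of the other clock genes, tim had 479, 436 and 938 in BL15598 and 438, 238 and 415 in Canton S. These values are from the brighter of its 2 probe sets, which did not pass (adjusted p = 0.28). The gene per fell by 1.09 on the log2 scale (adjusted p = 0.0306). Its call ended without any single Canton S array, without BL15598 replicate 2 or 3 (log2 changes of -1.17 to -0.87) and with the 6 compared arrays alone. Pdp1, which encodes a transcription factor of the clock's second loop, had 603, 597 and 1049 in BL15598 and 383, 268 and 400.3 in Canton S (2.10-fold higher, adjusted p = 0.0198). The call of Pdp1 ended without Canton S replicate 2 (0.88) and with the 6 compared arrays alone. The time of day of dissection was not used here.

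Of 21 neuronal ion channel genes 3 were higher and 0 lower (14.3%, against 11.4% of all genes), with a median log2 change of 0.44. Ca-alpha1D, an L-type calcium channel gene, had 1079.9, 979.8 and 891 in BL15598 and 143, 164 and 270.0 in Canton S (5.30-fold higher, adjusted p = 0.000507), and the potassium channel gene Elk had 181, 185 and 184 in BL15598 and 95.0, 81.4 and 105 in Canton S (1.96-fold higher, adjusted p = 0.00691). The nulls lay with BL15598 at Ca-alpha1D, at 837 to 1383. Among 88 long noncoding RNA genes 6 were higher and 5 lower (12.5%, near the 11.4% of all genes). The number called was 1 with the 6 compared arrays alone, 6 without Canton S replicate 3 and 7 without BL15598 replicate 2. The lncRNA:CR43097 transcript had 4525, 4411 and 3925 in BL15598 and 2135, 2099 and 2527 in Canton S (1.91-fold higher, adjusted p = 0.000489).

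Probe sets of the same gene did not always move together, which bears on how a change of signal is read. Of 126 called genes with more than 1 probe set named for them alone, 20 had another called in the same direction and 5 had another called in the opposite one. These were CG13784, CG14642, CTCF, GluClalpha and Mf, named after their values were seen. The insulator protein gene CTCF is an example. Its brightest probe set had means of 944 ± 25.0 in BL15598 and 530 ± 46.9 in Canton S (SD, n = 3 each), log2 change 0.84, while another had 43.6 ± 19.9 in BL15598 and 316 ± 38.7 in Canton S (log2 change -2.98, adjusted p = 0.0144). The third had 13.4 ± 7.57 in BL15598 and 301 ± 33.1 in Canton S (log2 change -4.65, adjusted p = 0.00791), so 2 of the 3 fell. The mean over its probe sets turned its direction, to -2.27. CG13784 rose by 1.03 at its brightest probe set and fell by 1.98 and 2.19 at the others. Mf, a muscle protein gene, gave 0.67 at its brightest probe set, a call that ended without Canton S replicate 1 (0.57) or 2 (0.62), and fell by 2.03 at another. Probe sequences were not used here, so a base difference under a probe, a different transcript form and a different transcript level cannot be told apart, and this holds for every gene of the comparison.

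The other pair of genotypes in the series, A2663/2 against 2/v, is measured on a separate set of arrays. Both nulls carry the y and w alleles of BL15598, and A2663/2 alone also shares its Amt allele. The comparison of the nulls shares no array with that of the stocks, but the same estimate of the spread. Limma called 135 of 11982 genes there (1.13%), 87 higher in A2663/2 (0.726%) and 48 lower (0.401%). Of the 1370 genes called between the stocks, 67 were also called between the nulls (4.89%). In 53 of them the direction was the same, 31 higher and 22 lower, which is 3.87% of the genes called between the stocks and 39.3% of those called between the nulls, and in 14 it was opposite. Of the 52 such genes with a place, 39 lie on chromosome 3 (75.0%), which carries the Amt insertion and su(Hw), and 0 on the X chromosome. Chromosome 3 also held 94 of the 133 placed genes called between the nulls (70.7%) and 5318 of the 11892 measured (44.7%), so the share of the 52 is near that of the null comparison. The X chromosome held 3 of the 133 and 1873 of the 11892, so the null comparison as a whole had few called genes there.

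This count rests on few arrays. It was 31, 28 and 25 without A2663/2 replicates 1, 2 and 3, and 31, 26 and 35 without 2/v replicates 1, 2 and 3. It came to 92 with array weights and 90 with probe sets of mean signal above 100.

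The genes that moved most in both pairs included several with known products. The receptor gene mthl6, of the methuselah-like family, had 962, 897 and 1421 in BL15598 and 46.8, 101 and 65.0 in Canton S (log2 3.99, adjusted p = 2.76e-05), with 608, 672 and 716 in A2663/2 and 59.6, 76.3 and 88.7 in 2/v (log2 3.17, adjusted p = 0.000847). The levels of A2663/2 lay with BL15598 and those of 2/v with Canton S. CG31337 had 1183, 1172 and 1092 in BL15598 and 68.9, 127 and 76.4 in Canton S, and 1118, 1172 and 1145 in A2663/2 and 192, 119 and 141 in 2/v. For ppk19, given above in the stocks, the nulls had 627, 459 and 696 in A2663/2 and 73.4, 66.3 and 77.4 in 2/v (log2 3.02, adjusted p = 0.00111). Drsl3 was likewise higher in A2663/2, with 1530.5, 1395 and 1467, than in 2/v, with 278, 298 and 311 (log2 2.31, adjusted p = 0.000256).

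In the opposite direction, Sox21a, a transcription factor gene known from intestinal stem cells, had 86.5, 70.5 and 39.8 in BL15598 and 640, 738 and 761 in Canton S (log2 -3.51, adjusted p = 0.00468), with 121, 20.0 and 95.6 in A2663/2 and 509, 542 and 495 in 2/v (log2 -3.07, adjusted p = 0.0489). Adgf-D, which encodes a secreted adenosine deaminase, had 181, 125 and 93.5 in BL15598 and 756, 755 and 1004 in Canton S, and 112, 108 and 157 in A2663/2 and 597, 496 and 576 in 2/v. The SAGA complex gene wda had 408, 439 and 511 in BL15598 and 1275, 1063 and 1410.5 in Canton S, and 1209, 978 and 1073 in A2663/2 and 2911, 3407 and 3165 in 2/v. For wda the A2663/2 arrays were near Canton S and the 2/v arrays far above both stocks, so a shared direction did not always mean a shared level. Rnf11, a RING-finger gene on chromosome 4, had 2734, 1632 and 2249 in BL15598 and 12396, 11750 and 10524 in Canton S, and 733, 1082 and 1457 in A2663/2 and 4668, 5155 and 5482 in 2/v. Its other probe set had means of 117 ± 21.0 in BL15598 and 167 ± 30.7 in Canton S (SD, n = 3 each) and did not pass. The log2 change of Rnf11 between the stocks was -2.42, and -1.46 as the mean of its probe sets. Of the 14 genes with opposite directions, pbl, a cytokinesis regulator, fell by 1.85 on the log2 scale in BL15598 against Canton S and was 0.95 higher in A2663/2 than in 2/v. It was named after its values were seen.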

How the data were processed

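RNA of testes was amplified and hybridised to Affymetrix Drosophila Genome 2.0 arrays, 12 in all and 3 per genotype. The authors deposited 1 linear intensity for each of 18952 probe sets and array, and the submitters' processing notes name Partek 6.5 and RMA. The scaling of the arrays is otherwise unknown. The 2% trimmed mean was close to the same value on every array, so levels are relative within an array.

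Log2 of the deposited intensity, with no offset, was modelled by limma (3.58.1, under R 4.3.3) with a mean per genotype. The genotypes share 1 estimate of the spread with 8 residual degrees of freedom. The moderated test was adjusted by the Benjamini-Hochberg method over 18769 probe sets without the 183 controls, and called below an adjusted p of 0.05. Of the probe sets, 13647 have 1 gene symbol, 402 several and 4720 none, from GEO's platform annotation. A gene is its probe set with the highest mean, which gives 11982 genes. Gene order, distances in kb and windows came from RefSeq (Release 6 plus ISO1 MT). The data files name no build, and positions themselves are not printed. The code was tested on simulated data.

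The members and lists were chosen with earlier results of these data known. The text names the genes of the BL15598 genotype and their neighbours, the 14 genes per direction with the greatest change among called genes without overlap (leaving out genes whose brighter stock lay below the median of the control probe sets), up to 4 called members of a list by adjusted p, and, for each direction, 6 genes that changed most in both pairs of genotypes. Genes outside this rule, and those set beside a list to compare with it, were chosen after their values were seen. Replicates of the same number did not deviate together between the stocks (r of -0.037, -0.0064 and -0.004 for numbers 1, 2 and 3). These values cannot settle whether the numbers mark a shared batch, which the labels do not say. The main fit used no pairing. The number of arrays limits the precision. Alternatives were other scalings, filters, floors and offsets, other limma settings, the 6 compared arrays alone, a block for the replicate number, the mean of all probe sets of a gene, and leaving out each array. Sequences were not used here.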

Additional observations from a re-analysis of the deposited data

How the results depend on the processing

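Of the counts, that of the 1799 probe sets called between BL15598 and Canton S moved by over 1.5 times with the 6 compared arrays alone, where 715 were called, 400 higher and 315 lower, with fewer residual degrees of freedom. Leaving out single arrays gave 1327 to 1667 probe sets, 726 to 982 higher and 570 to 730 lower. With the replicate number as a block, 1644 were called, 922 higher and 722 lower, and the count of genes called the same way in both pairs of genotypes was 36. That count, 53 as reported, was 90 with mean signal above 100, 83 with values floored at the control median, 80 with a trended and robust prior, 92 with array weights and 25 to 49 without single arrays. It was not run with the 6 compared arrays, which hold no A2663/2 or 2/v array. Averaging the probe sets of a gene turned CTCF to -2.27 and Mf to -0.68, and the cause was not tested. Of the 119 called genes that the naming rule gave, 43 lost their call with the 6 compared arrays alone, 11 with the block, 10 with centring, 5 with quantile normalization and 6 to 21 without a single array. Flooring or an offset shrank changes of genes near the control level, by their construction. Genes dimmer than the controls in 1 stock have only a lower bound of fold.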
